A study of Caenorhabditis elegans with 6 samples.

Results

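The strain HW3826 was compared with the wild-type strain N2 in first-stage (L1) larvae of the worm Caenorhabditis elegans, over all genes and along the chromosomes. HW3826 carries maIs105, an integrated transgene array in which the promoter of the adult collagen gene col-19 drives green fluorescent protein; the design text writes VT1367 (HW3826), and how these names relate is not stated. The comparison used 4 of the 6 libraries of the series, 2 of each strain, and 15024 of the 20190 genes in the count table passed the expression filter and were tested. The remaining 2 libraries, of GR1395 with the reporter array mgIs49, shared the fit and its estimate of spread. In each strain, starved larvae had been synchronised overnight in M9 buffer and then kept at 25 °C for 4 hours of development before harvest, and polyadenylated RNA of whole animals was sequenced from both ends with a stranded kit.

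An integrated array is a block of many plasmid copies joined into a chromosome, often after mutagenesis, and the strain that carries it has its own breeding history. In strain lists maIs105 is placed on chromosome V, and the insertion site is not given in the sources used here. HW3826 differs from N2 by the array and by that history together, so the effect of either cannot be told apart. The arms of the C. elegans autosomes, chromosome V above all, are rich in large families of chemoreceptors, lectins, nuclear receptors and detoxification enzymes, whereas the centres hold more genes that every cell uses. Whether the 2 libraries of a strain came from separate cultures is not in the labels. Each p-value reflects how far the libraries of the fit spread, in large part pooled over genes, and that spread may be technical. In RNA of whole larvae, fewer cells of a type and less RNA per cell cannot be told apart.

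The 4 libraries held 42593688 to 53362541 counts. N2 replicate 2 stood apart by a trend with transcript length: its median log2 deviation from the mean of all libraries was 0.12 in the shortest class of genes, with a median of 441 bases, and -0.16 in the longest, with a median of 3909 bases. Markers of sperm and of the early embryo, stages apart from the L1 larva, were low: the 5 tested sperm genes summed to 7.12 to 7.70 CPM, counts scaled to a common library total, in the 4 libraries, and the 5 tested early embryo genes to 1.97 to 3.2. No sequence table was used here, so genes are given by name and position only, in WBcel235 coordinates.

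At an adjusted p under 0.05 (edgeR quasi-likelihood test, adjusted over all genes tested, no fold cutoff), 902 genes were called, 6.0% of those tested. Of these, 532 rose in HW3826 (3.54%) and 370 fell (2.46%). Most differences were small: called genes had a median absolute log2 fold change of 0.51, and 150 reached 2-fold, 79 of them higher and 71 lower. The number of calls depended on single libraries. Without N2 replicate 2, 327 genes were higher and 291 lower. Without HW3826 replicate 1 these counts were 274 and 215, and without HW3826 replicate 2 they were 217 and 161. A set of 250 genes (1.66%), 146 of them higher and the rest lower, kept its call in each of the 6 fits that leave out 1 library. Unless a lost call is stated, every gene said to rise or fall below is one of these 250.

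Chromosome V held the largest share of called genes. Of its 3272 tested genes, 257 were called, 7.85%, against 6.61% on IV, 6.11% on X, 5.86% on II, 4.85% on I and 4.04% on III. edgeR called 0 of 12 mitochondrial genes, DESeq2 and limma-voom called 0, and 0 had an unadjusted p under 0.05. On V, 148 genes rose and 109 fell, so the excess was not in one direction. Without HW3826 replicate 2, 141 genes of V were called, and without HW3826 replicate 1, 4.44% of its tested genes, against 3.17% of all. V also led among the genes that kept their call in every leave-out fit, with 95 genes or 2.90%, followed by IV with 2.03%, X with 1.52%, II with 1.26%, III with 0.923% and I with 0.873%. Among calls of at least 2-fold, V had 65 (1.99%) and IV 29 (1.23%), and the share on the other nuclear chromosomes was between 0.396% and 0.905%. The order was not kept in every fit: without N2 replicate 1 the share was 7.79% on V, below 8.22% on I, 8.30% on IV and 8.42% on X. The median log2 fold change of all tested genes was -0.02 on V and between -0.02 and 0.02 on the other nuclear chromosomes.

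**Figure D1:**
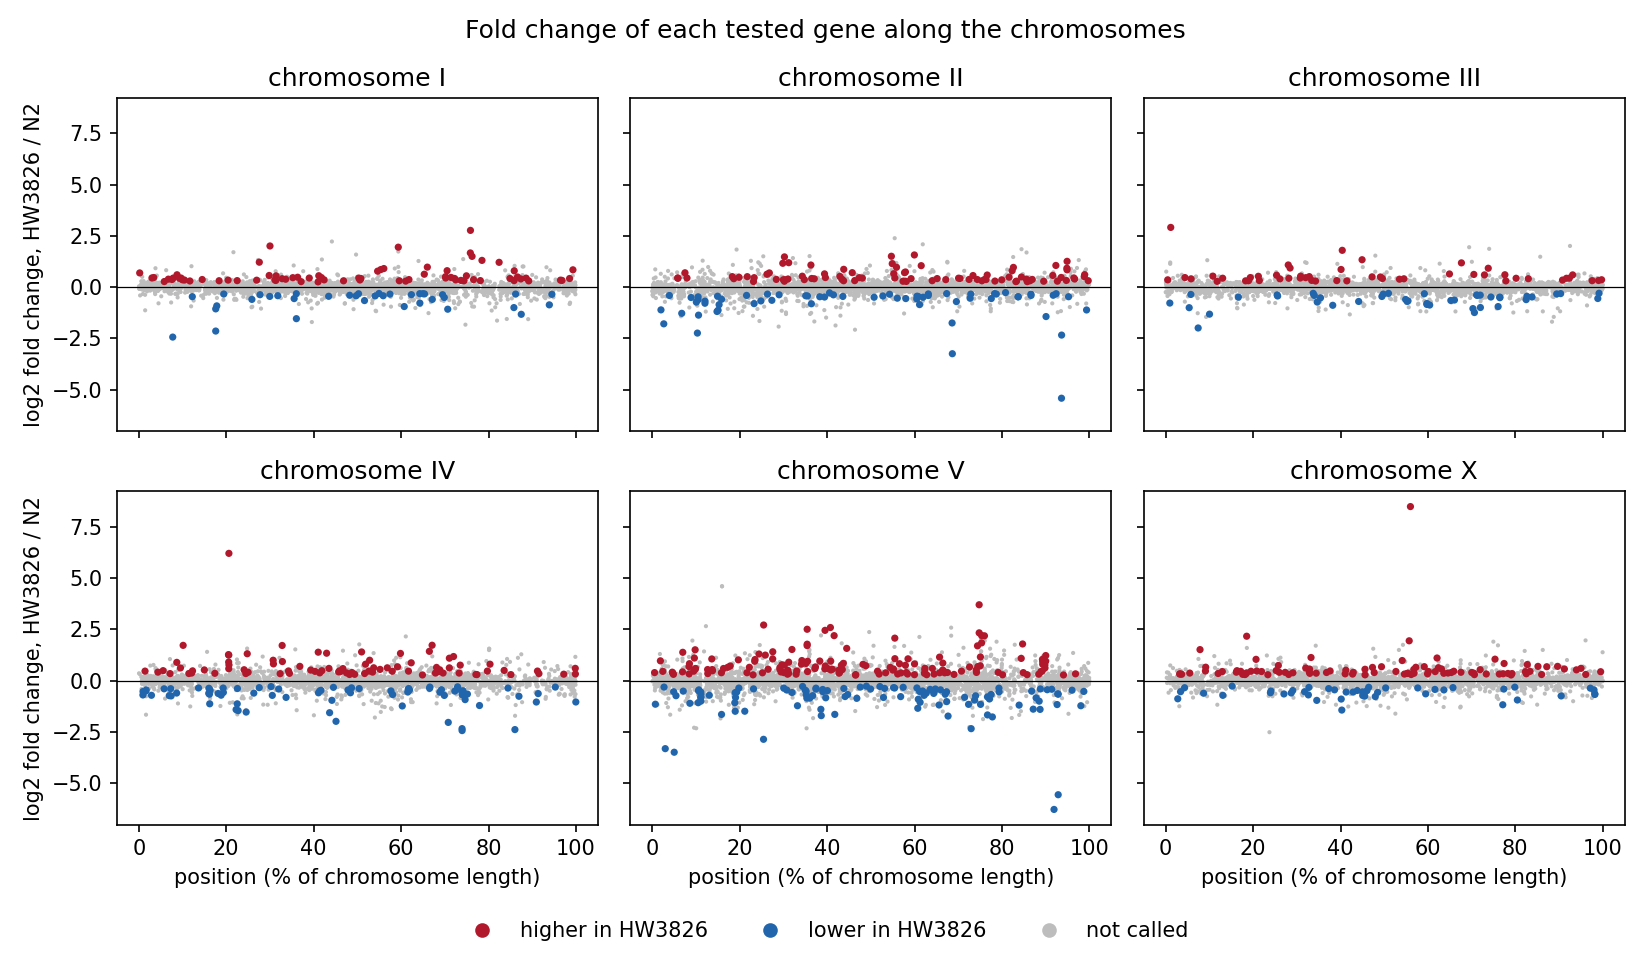
Log2 fold change of each tested gene in HW3826 against N2 (vertical axis) by its midpoint as percent of chromosome length (horizontal axis, length taken to the end of the last annotated gene), 1 panel per chromosome, with called genes in red (higher) and blue (lower). Called genes lie along every chromosome, and chromosome V has 65 of the 150 calls of at least 2-fold.

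Within V the share of called genes was nearly even: with its length divided into 3 equal parts, 8.27% in the left part, 7.56% in the middle and 7.84% in the right part. Calls of at least 2-fold were more frequent toward the ends, at 2.29% and 2.80% of the tested genes in the left and right parts of V and 1.24% in the middle. The same held over all 6 nuclear chromosomes together, with 1.27% in the outer parts and 0.616% in the middle. In stretches of 1 Mb, of which 102 held enough tested genes to be described, between 1.91% and 18.6% of the genes were called, with a median of 5.445%. The share passed 10% in 11 stretches, and 6 of these were on V. The median log2 fold change per 1 Mb stretch was between -0.12 and 0.07. Such a median does not exclude a shift of a smaller part of a stretch.

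**Figure D2:**
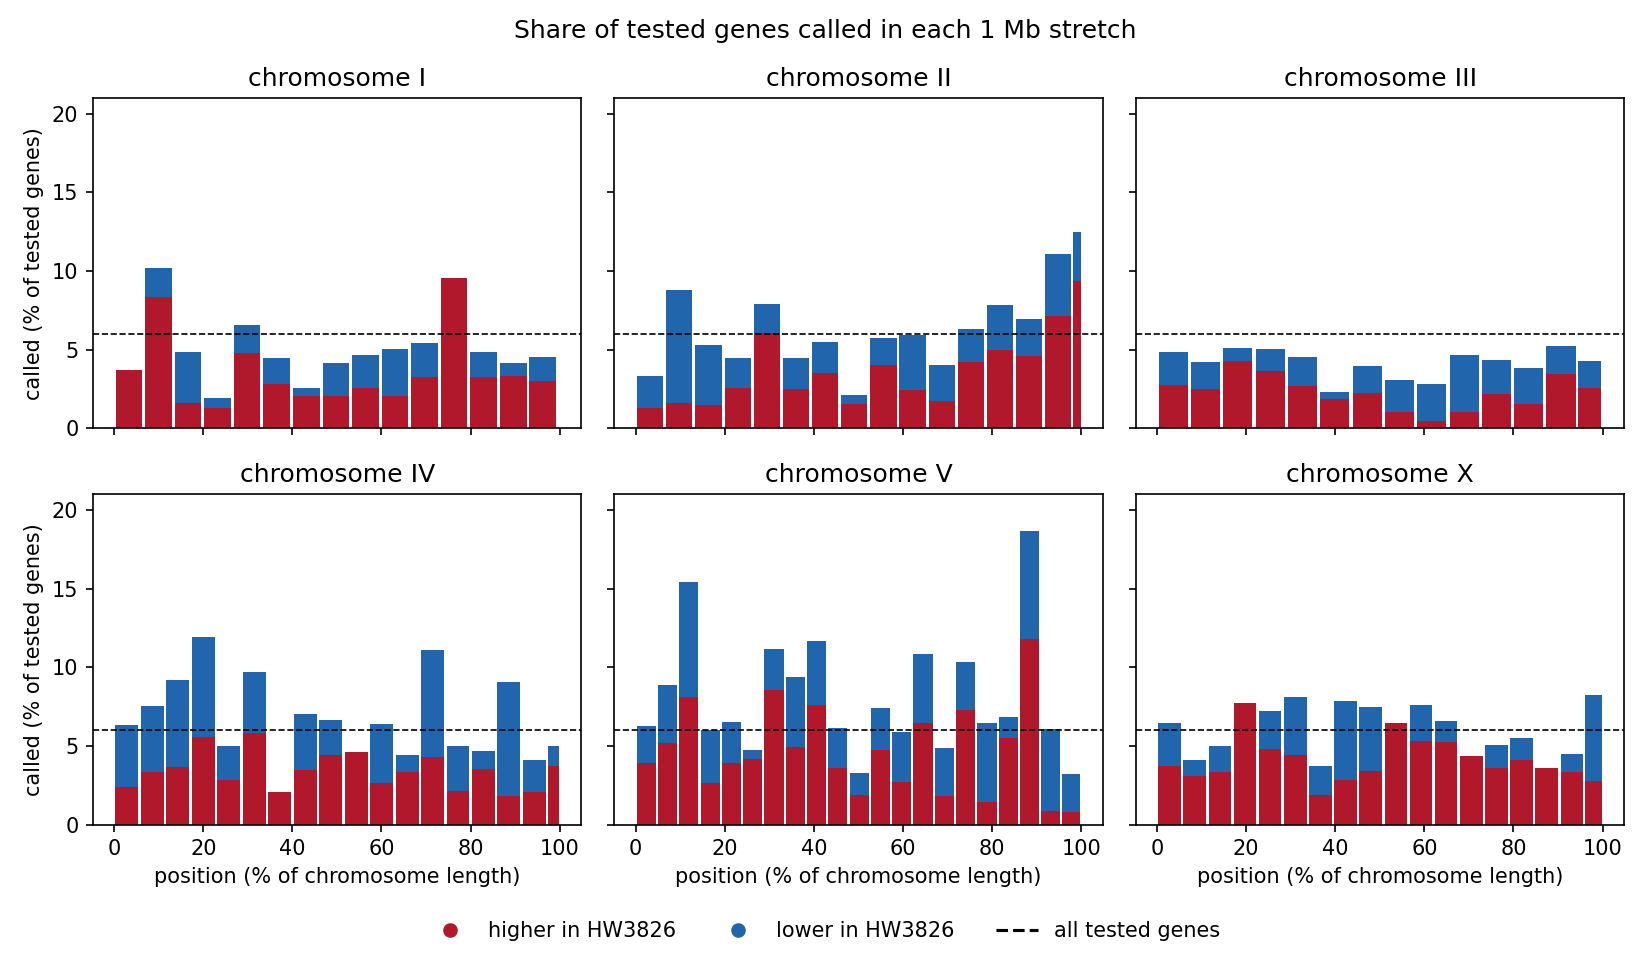
Share of the tested genes that were called in each 1 Mb stretch (vertical axis, percent) by position as percent of chromosome length (horizontal axis), stacked as higher (red) and lower (blue) in HW3826, with the share of all tested genes, 6.0%, as a dashed line. The tallest bar, 18.6%, is near the right end of chromosome V, and the next, 15.4%, is near its left end.

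The highest share was in V 18 to 19 Mb, where 19 of 102 tested genes were called, 12 higher and 7 lower, and 7 of the 19 kept their call in every leave-out fit. Fewer genes of this 1 Mb were called when any 1 N2 or HW3826 library was left out. Its share stayed above that of all genes tested in those fits, least so without N2 replicate 1. In that fit V 2 to 3 Mb and V 6 to 7 Mb held more calls. A test against a fold of 1.2 called 6.86% of the 102, against 1.66% of all tested genes and 3.12% of those on V. Of the 12 genes that rose, 11 lay in one stretch from grdn-1, at V 18592748, to cyp-33D3, which ends at V 18837225. These limits are genes 57 and 82 of the 102 in order of position. They were set by the calls themselves, and clustering was not tested. Y69H2.10 was at 15 and 15.7 CPM in N2 and at 34.7 and 28.4 in HW3826 (log2 1.04, SE 0.11, adjusted p = 0.000152). ncs-5, a gene of the neuronal calcium sensor family, was at 10.8 and 11.2 CPM in N2 and 22.2 and 20.3 in HW3826 (log2 0.95, SE 0.10, adjusted p = 9.69e-05). The GR1395 libraries, at 16 and 13.6 CPM for Y69H2.10 and 11.6 and 11.3 for ncs-5, lay near N2.

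Within this stretch 2 runs of 3 neighbouring tested genes rose together. The first, V 18686321 to 18706098, held ubc-19, which codes for a ubiquitin-conjugating enzyme (log2 0.80, adjusted p = 0.000631), Y69H2.7 (0.95, adjusted p = 4.6e-05) and Y69H2.9 (0.92), whose call ended without HW3826 replicate 2 (adjusted p = 0.0534). The second, V 18790958 to 18808729, held the nuclear receptor genes nhr-231 (0.76) and nhr-170 (0.62) and the gene C54E10.6 (0.93, adjusted p = 0.00555). The call of nhr-231 ended without N2 replicate 2 or HW3826 replicate 1 (adjusted p up to 0.135), and that of nhr-170 without either N2 library, HW3826 replicate 1 or either GR1395 library (up to 0.409). Y69H2.3, next to Y69H2.10, rose from 156 and 162 CPM to 224 and 216 (log2 0.46, adjusted p = 0.00243). Further calls were grdn-1 (0.44), lost in the fits that lack N2 replicate 2 or HW3826 replicate 1 (up to 0.148), and the cytochrome P450 gene cyp-33D3 (1.23), lost in the fits that lack N2 replicate 1 or HW3826 replicate 1 (up to 0.204). ubc-19 overlaps the antisense gene Y69H2.17 and Y69H2.3 overlaps egas-2, and use of strand in counting is not given, so their reads could have been divided.

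Between V 18158026 and 18579784, to the left of that stretch, the calls were mostly falls. hmit-1.1, which codes for a transporter of myo-inositol that serves the response to high salt, was at 86.0 and 88.9 CPM in N2 and at 48.9 and 38.6 in HW3826 (log2 -1.0, SE 0.11, adjusted p = 0.000217). GR1395 was at 55.5 and 59.5 CPM, below N2 as well (log2 -0.65, adjusted p = 0.00248 against the same N2 libraries). The other lower genes of the 1 Mb lost their call in 1 or more leave-out fits, among them the lectin gene clec-48 (-0.51, adjusted p up to 0.217) without either N2 library or HW3826 replicate 2, and Y51A2D.13 (-0.40, up to 0.239) without N2 replicate 2 or HW3826 replicate 2. The single rise outside the stretch was that of slo-1, a calcium-activated potassium channel (0.32), lost without N2 replicate 2 or either HW3826 library (up to 0.191).

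**Figure D3:**
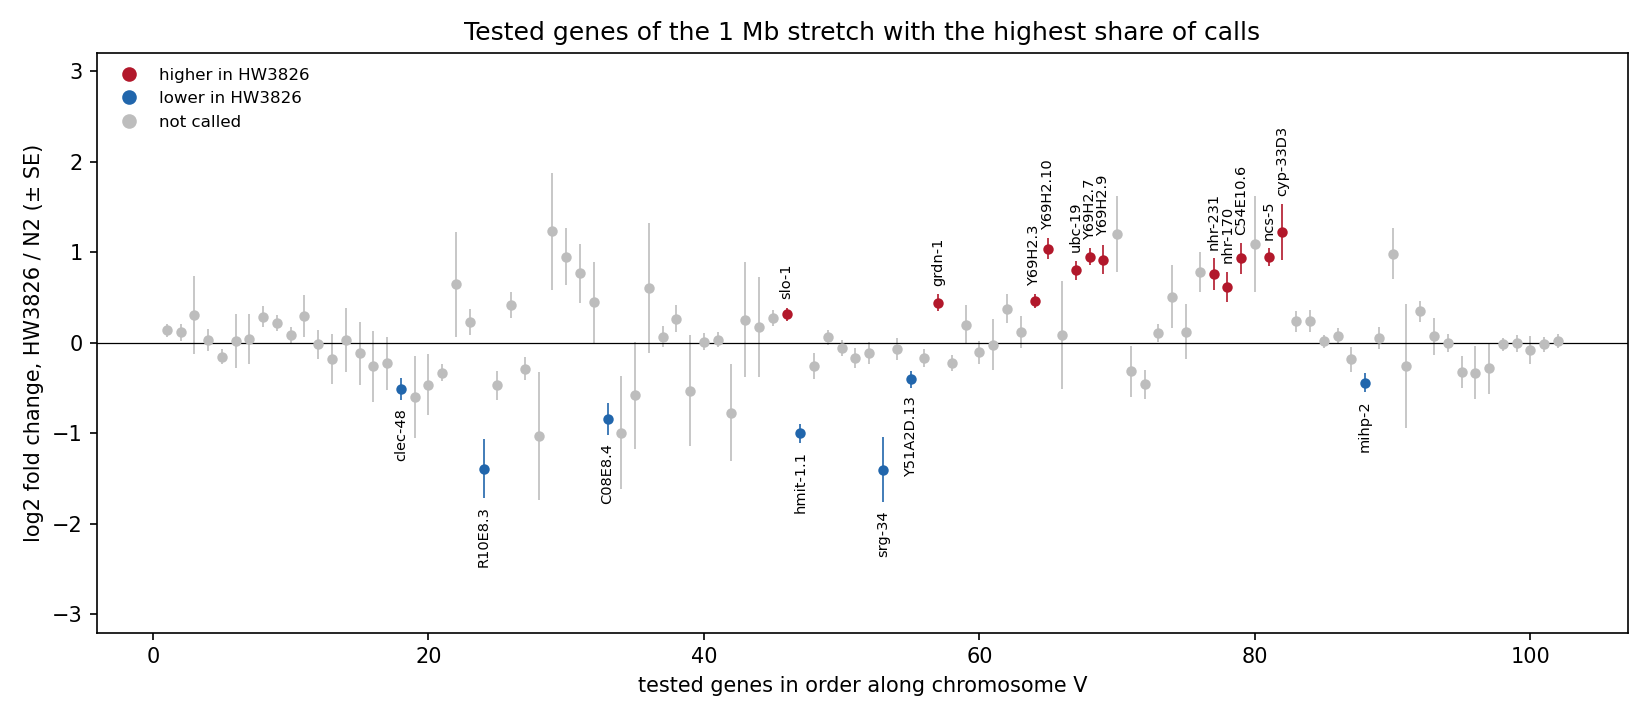
Log2 fold change in HW3826 against N2 with its standard error (vertical axis) for the 102 tested genes of the 1 Mb stretch with the highest share of calls, in their order along chromosome V (horizontal axis), with called genes named. Of the 12 higher genes, 11 lie from grdn-1 to cyp-33D3, with genes among them that were not called. Of the 7 lower genes 6 lie to the left of that stretch and 1 to the right.

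The stretch V 15 to 16 Mb held the most calls that did not depend on 1 library, 12 of 17 called among 165 tested genes. It also held 10 calls of at least 2-fold, 7 higher and 3 lower, which is 6.06% of its tested genes, against 1.99% on V. The stretch was picked for its high count of calls that did not depend on 1 library. Without HW3826 replicate 1, 12 of its genes were called. The genes named from it beyond the general rule were chosen after their values were seen. T06C12.14 was at 1.13 and 1.37 CPM in N2 and 5.49 and 5.97 in HW3826 (log2 2.19, SE 0.19, adjusted p = 1.85e-05), with both HW3826 libraries above all 4 others. The fatty acid oxidation gene acs-2 (1.70) and the transporter gene haf-3 (1.84) lie in the same stretch. twk-34, a potassium channel gene, rose by 1.16 (adjusted p = 0.00188), although it was also higher in GR1395 against the same N2 libraries (1.05). Y6E2A.4, close to twk-34, fell from 15.9 and 13.7 CPM to 7.20 and 6.1 (log2 -1.16, adjusted p = 0.000126). K08F9.1 (-1.15, adjusted p = 0.00131) and M01B2.13 (-2.34, adjusted p = 0.0017) fell as well. The neighbours C55A1.6 and C55A1.7 had few counts. C55A1.6 was counted 19 and 8 times in N2 and 95 and 63 times in HW3826, and C55A1.7 2 and 1 against 29 and 19 times. C55A1.6 rose by 2.33 (adjusted p = 0.00687), whereas the call of C55A1.7 ended without N2 replicate 2 or HW3826 replicate 1 (adjusted p up to 0.0702); its ratio of counts scaled by library total was 14, with a 95% exact interval of 4.51 to 70.3 that covers counting error only. F57A10.2 (2.2), the last of the 10, lost its call in each leave-out fit (up to 0.217).

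Elsewhere on V the largest fall with at least 2 CPM was that of srw-85, a predicted chemoreceptor gene at V 19429387 to 19431136. It was at 75.4 and 69.9 CPM in N2, 1.33 and 1.76 in HW3826, with 2.66 and 1.97 in GR1395 (HW3826 against N2: log2 -5.56, SE 0.14, adjusted p = 4.05e-11). Both array strains thus lay far below the N2 libraries they share as controls. Among genes nearby, named after their values were seen, C25F9.11 fell by 0.66 (adjusted p = 0.00553) and nceh-1, named for a neutral cholesterol ester hydrolase, fell by 1.16 from 7.56 and 7.81 CPM to 3.49 and 3.37 (adjusted p = 0.000266). C25F9.2, which lies between nceh-1 and srw-85, did not pass (log2 1.1, adjusted p = 0.297). sqst-3, further left at V 19230782, was counted 47 and 38 times in N2, 0 and 1 times in HW3826, and 0 and 5 times in GR1395. Its ratio of scaled counts in HW3826 against N2 was 0.0103, with a 95% exact counting interval of 0.000258 to 0.0589 (adjusted p = 0.00171), and it overlaps the antisense gene str-81.

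Further large changes on V lay outside these stretches. C10G8.8 fell from 81.5 and 89.7 CPM to 11.6 and 12 (log2 -2.86, SE 0.09, adjusted p = 1.49e-10), while GR1395, at 87.2 and 84.0, overlapped N2. cest-1.2, of the carboxylesterase family, fell from 32.9 and 28.5 CPM to 8.71 and 9.87 (log2 -1.73, SE 0.11, adjusted p = 4.45e-07). F35F10.1 fell by 1.65 and dct-17, a gene known to respond to insulin signalling, by 1.19, from 71.8 and 60.2 CPM to 26.4 and 31.7. Among the rises, the aspartyl protease gene asp-12 went from 7.02 and 4.38 CPM to 31.2 and 31, and piit-1 from 2.61 and 3.05 to 12.4 and 11.5 (log2 2.07, SE 0.15, adjusted p = 1.85e-06). In both genes the lower HW3826 library was more than 3 times the higher N2 library. comt-5, of the catechol-O-methyltransferase family, rose by 1.51 and K11G9.5 by 1.52, and GR1395 was above N2 for both (0.88 and 0.92).

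There were 7 runs of at least 3 neighbouring tested genes called in one direction, 4 of them on V. F18E3.11, F18E3.12 and F18E3.13, short genes at V 7413482 to 7416433, rose together. F18E3.12 was at 0.704 and 0.763 CPM in N2, 4.22 and 4.17 in HW3826, with 1.56 and 1.82 in GR1395 (log2 2.51, SE 0.23, adjusted p = 2.13e-05). F18E3.11 (1.71) lost its call without N2 replicate 2 (adjusted p = 0.0593) and F18E3.13 (1.78) without either N2 library (up to 0.184), while the genes on either side, R13D7.2 (-0.16, adjusted p = 0.432) and srw-68 (-0.27, adjusted p = 0.864), did not pass. The run at V 2326678 to 2330930 went down and held pud-4 (-1.0), pud-2.2 (-0.66) and pud-1.1 (-0.81), genes first known for proteins that are abundant in mutants of the insulin receptor daf-2. None of the 3 calls was kept in every leave-out fit: pud-4 lost it when either HW3826 library was absent (adjusted p up to 0.129), pud-2.2 without N2 replicate 2 (0.0576) and pud-1.1 without N2 replicate 1 or either HW3826 library (up to 0.117). pud-1 and pud-2 have near-identical copies next to them, so the division of reads there is uncertain.

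The other 3 runs were on II and IV. At IV 12935011 to 12941354 cld-1, dod-21 and dod-24, neighbouring genes of a group that responds to insulin signalling and infection, fell together. dod-21 was at 2.61 and 2.16 CPM in N2, 0.281 and 0.608 in HW3826, with 0.400 and 0.148 in GR1395 (log2 -2.43, SE 0.40, adjusted p = 0.00278). cld-1 fell by 2.34 and dod-24 by 0.69, and these genes too were lower in GR1395 against the same N2 libraries (-4.38 and -0.82), whereas the flanking genes C32H11.4 and dct-19 did not pass in HW3826. At II 14492874 to 14501663 cysl-2, dhs-8 and K10H10.4 were higher, described with sulfide genes further on. The longest of the 7 runs, from taf-2 to kgb-2 at IV 3584400 to 3609229, held 6 genes called higher in HW3826, of which 4 kept their call in every leave-out fit. Those were taf-2, named for a general transcription factor subunit (1.27), Y37E11B.5 (0.91), Y37E11B.7 (1.24) and Y37E11B.10. Y37E11B.6 (0.58) was not called in the fits that lack N2 replicate 1, HW3826 replicate 1 or HW3826 replicate 2 (up to 0.201). kgb-2 (0.77), which the antisense gene ltah-1.2 overlaps, was not called in the fit that lacks HW3826 replicate 2 (0.0758). Y37E11B.10 was counted 2 and 5 times in N2 and 300 and 309 times in HW3826, a ratio of scaled counts of 76.1 with a 95% exact counting interval of 36.7 to 190.

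The largest ratio of all was that of C17G1.2, a single gene at X 9921557 to 9922843. It was counted 1 and 0 times in N2 but 271 and 233 times in HW3826, and 2 times in each GR1395 library (adjusted p = 1.32e-07). Scaled by library total, HW3826 held 441 times the counts of N2, with a 95% exact counting interval of 78.8 to 17500. Its neighbours did not pass: ugt-23, which starts at X 9922862, stood at a log2 of -0.02 (adjusted p = 0.941) and F21G4.6 had 0.29 (adjusted p = 0.207). On II, ctl-1, a catalase gene, fell from 18.7 and 18.6 CPM to 0.412 and 0.461, and its neighbour ctl-3 from 5.68 and 4.69 to 1.14 and 0.901, while ctl-2, on the other side, did not pass (0.14, adjusted p = 0.38). These catalase genes resemble each other closely in sequence, so how reads were divided among them is uncertain. On I, haf-6, a half-molecule ABC transporter needed for RNA interference, was at 32.7 in each N2 library, 5.77 and 6.39 in HW3826, with 5.59 and 5.48 in GR1395, so that both array strains lay far below N2. atic-1, the last enzyme of purine synthesis on IV, fell from 47.0 and 46.3 CPM to 11.3 and 12.4 (log2 -1.98, adjusted p = 7.61e-09). It was the 1 called gene of 8 for purine synthesis, and the antisense genes ilys-4 and arp-11 overlap it.

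Gene families were taken from the letters of the gene names. Of 154 families with at least 10 tested members, 65 had no called gene, and 23 had more than 12% of their members called, against 6.0% of all tested genes. Acyl-CoA synthetases (acs), which activate fatty acids, had 5 of 19 tested members higher and 1 lower (22 in the table), 31.6% called. acs-19 was at 147 CPM in each N2 library and 287 and 337 in HW3826 (log2 1.09, SE 0.09, adjusted p = 1.14e-05), and acs-13 rose by 0.47 (adjusted p = 0.00188). Without HW3826 replicate 2, 3 were higher and 0 lower.

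UDP-glycosyltransferases (ugt), which attach sugars to toxins and other small molecules, had 11 of 65 tested members higher and 3 lower (67 in the table). Calls made up 21.5%, against 6.0% of all tested genes. The median log2 fold change was 0.15, against -0.01 for all tested genes. ugt-53 on V was at 13.3 and 11.2 CPM in N2 and 26 and 25.1 in HW3826 (log2 1.06, SE 0.10, adjusted p = 4.32e-05), and ugt-44 on IV at 4.39 and 4.32 in N2 and 8.73 and 13.2 in HW3826 (log2 1.33, SE 0.17, adjusted p = 0.000734). GR1395 lay between N2 and HW3826 in both, at 19 and 20.4 for ugt-53 and 6.20 and 6.24 for ugt-44. The larger fold of ugt-66 (1.34) was not called when either N2 library was left out (up to 0.182), nor that of ugt-63 (1.3) without HW3826 replicate 2 (adjusted p = 0.0864). Without HW3826 replicate 2, 6 ugt genes were called higher in place of 11. The next step of detoxification is export. Of 14 P-glycoproteins (pgp), ABC transporters of foreign compounds, 3 were called higher and 0 lower, 21.4% against 6.0% of all tested genes. The number lower was 0 also by unadjusted p under 0.05 and by DESeq2 and limma-voom. pgp-1 went from 10.9 and 12.3 CPM to 24.5 and 28.1 (log2 1.18, SE 0.12, adjusted p = 9.11e-05) and pgp-14 from 44.9 and 40.7 to 63.2 and 60.9 (0.54, adjusted p = 0.0022), while pgp-9 (0.39) lost its call without HW3826 replicate 2 (0.101). Without N2 replicate 1, 5 pgp genes were higher. Cytochromes P450 (cyp), which oxidise such compounds first, were mixed, with 3 of 71 tested higher and 6 lower. The share called was 12.7%, against 6.0% of all tested genes. cyp-37B1 fell from 12.2 and 12.3 CPM to 3.75 and 3.44 (log2 -1.77, SE 0.13, adjusted p = 2.18e-06). Leaving out HW3826 replicate 2, 2 cyp genes were higher and 3 lower, and 1 was higher without N2 replicate 1 or HW3826 replicate 1. With GR1395 replicate 1 or 2 left out, 5 were higher.

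C-type lectins (clec), secreted proteins of which many respond to microbes, had 13 of 128 tested members lower and 7 higher (240 in the table). The share called was 15.6%, against 6.0% of all tested genes. clec-61 was at 4.13 and 4.12 CPM in N2, 0.487 and 0.377 in HW3826, with 1.07 and 1.18 in GR1395 (log2 -3.24, SE 0.25, adjusted p = 5.95e-06). clec-10 fell from 24.9 and 21.6 CPM to 6.78 and 6.70 and clec-86 from 8.36 and 10.2 to 3.49 and 3.39. clec-139 went the other way, by 1.48 from 1.31 and 1.92 CPM to 5.06 and 4.00. For each of these 4 genes GR1395 also differed from the same N2 libraries in the same direction. In the fit that lacks HW3826 replicate 2, 7 clec genes were lower and 4 higher, and 4 were higher without N2 replicate 2.

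Nuclear receptors (nhr), a family of transcription factors that is greatly expanded in nematodes, had 13 of 227 tested members higher and 3 lower, 7.05%, close to the share of all genes. nhr-11 rose by 0.80 (adjusted p = 0.00197) and nhr-53 by 0.73 (adjusted p = 0.0017). Without N2 replicate 2, 7 were higher, and without HW3826 replicate 1 or 2, 1 and 0 were lower, against 2 without either GR1395 library. Acyltransferases (oac) had 4 of 27 tested members higher and 0 lower (4 lower by unadjusted p under 0.05, 0 by DESeq2 and limma-voom). That is 14.8%, against 6.0% of all tested genes. oac-46 rose by 0.74 and oac-14 by 0.65, and both were also above the same N2 libraries in GR1395. Of the oac genes, 2 were higher without N2 replicate 2 or HW3826 replicate 2.

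Neuropeptide-like proteins (nlp) had 14 of 66 tested members lower and 0 higher, with 1 higher by unadjusted p under 0.05 and 0 higher by DESeq2 and limma-voom, and FMRFamide-like peptides (flp) had 4 of 30 lower and 0 higher, with 0 higher also by unadjusted p under 0.05 and by DESeq2 and limma-voom. Called shares were 21.2% of nlp and 13.3% of flp genes, against 6.0% of all tested genes. The median log2 fold change was -0.21 for nlp and -0.18 for flp. nlp-28, on V, was at 18.6 and 20.1 CPM in N2 and 11.8 and 10.1 in HW3826 (log2 -0.82, SE 0.11, adjusted p = 0.000872), nlp-7 at 28.8 and 30.3 against 20.8 and 19.1 (-0.57, adjusted p = 0.00235), and nlp-81 at 13 and 11.8 against 7.87 and 8.17 (-0.62, adjusted p = 0.00467). These 3 are the nlp genes that kept their call in every leave-out fit. These families are short, with a median length of 517.5 bases for nlp and 643.5 for flp, and so lie where N2 replicate 2 was high. With the length trend removed, 8 nlp genes and 0 flp genes were lower, and the medians were -0.11 and -0.08. Without HW3826 replicate 2, 3 nlp and 0 flp genes were lower, and without HW3826 replicate 1 these counts were 7 and 1, with 2 flp genes without N2 replicate 2. Transthyretin-related genes (ttr), also short at a median of 576 bases, had 6 of 48 tested members lower and 1 higher, 14.6% called. With the length trend removed these counts were 5 and 1. ttr-49 fell by 0.68 (adjusted p = 0.00537) and ttr-32 by 0.60 (adjusted p = 0.00685). Of the ttr genes, 2 were lower without HW3826 replicate 2, and 0 were higher without N2 replicate 2. Leaving out a GR1395 library gave 2 higher.

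Genes named for uncoordinated movement (unc) had 10 of 94 members higher and 0 lower (3 lower by unadjusted p under 0.05, 0 by DESeq2 and limma-voom), but none kept its call in every leave-out fit, and with the length trend removed 2 were higher and 2 lower. The called share of unc genes was 10.6%, against 6.0% of all tested genes, and their median length was 2638.5 bases. Leaving out N2 replicate 1 or 2 gave 24 and 3 higher, and leaving out HW3826 replicate 1 or 2 gave 1 and 0.

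**Figure D4:**
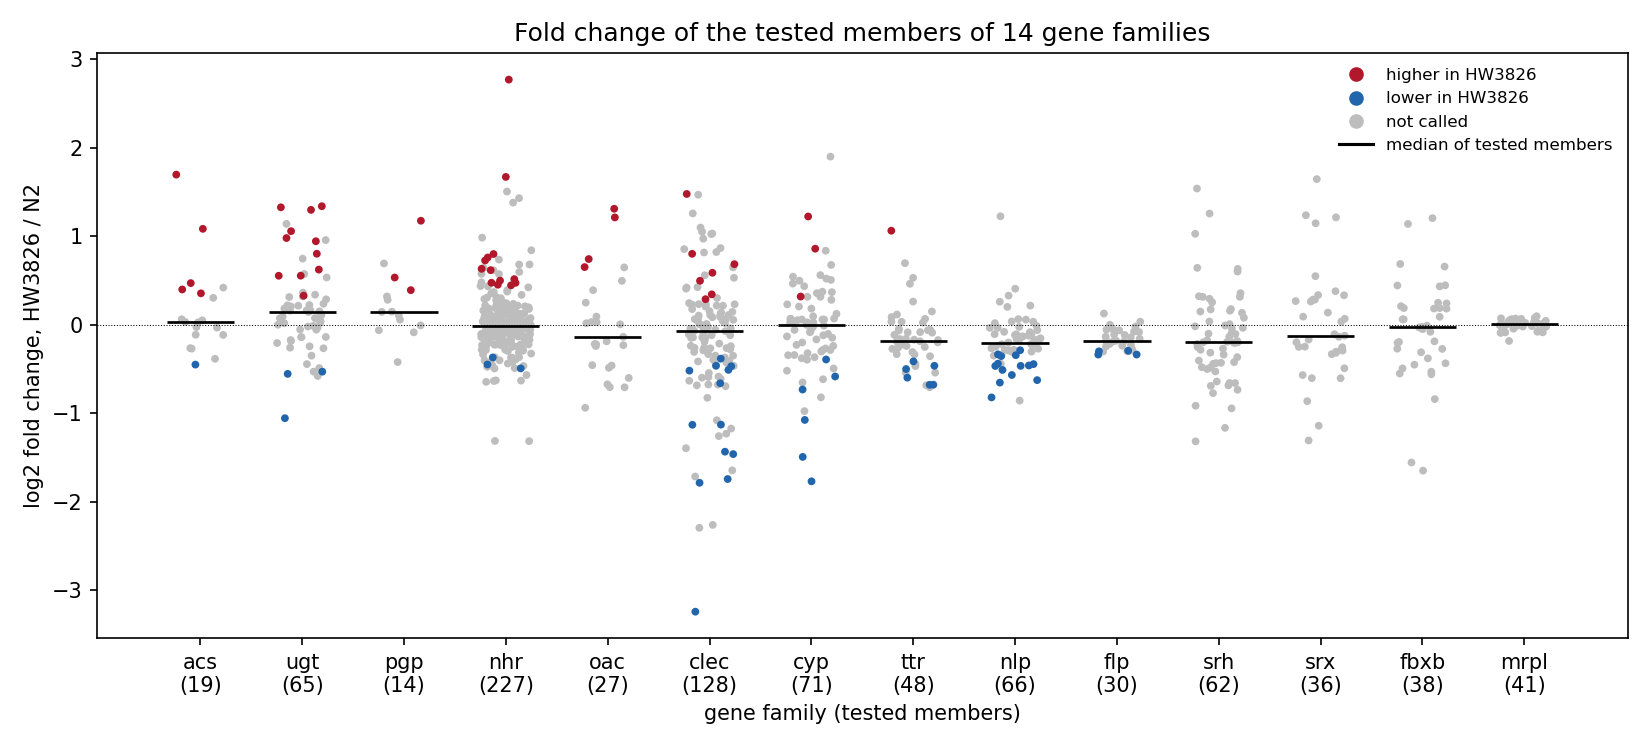
Log2 fold change in HW3826 against N2 (vertical axis) for the tested members of 14 gene families (horizontal axis, number tested in brackets), each point a gene, red if called higher, blue if called lower, with the family median as a black bar. Red points lead in acs and ugt, blue points in clec, nlp and ttr, and srh, srx, fbxb and mrpl have none.

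Some large families had few or no calls. The 16 families of chemoreceptors with at least 10 tested members together had 1 of 381 tested genes higher and 7 lower, 2.1%, and 4 of the 8 kept their call in every leave-out fit, srg-26 (2.71), srt-47 (-2.39), str-144 (-1.4) and srw-85. The 8 calls were in srg, srt, srv, srw and str, with 6.11% of 131 genes called. In the other 11 families (sra, srab, srbc, srd, sre, srh, sri, srsx, sru, srx and srz), pooled because they had no call, 0 of 250 genes were called by edgeR and limma-voom and 1 by DESeq2, and 5 higher and 10 lower had an unadjusted p under 0.05. Without N2 replicate 2 or HW3826 replicate 1, 4 of the 381 were lower, and leaving out N2 replicate 1 or HW3826 replicate 1 gave 2 higher. These genes are weakly read in whole larvae, and 62 of the 220 srh genes in the table passed the expression filter. Of 70 genes for proteins of the mitochondrial ribosome, 0 were called by edgeR, DESeq2 or limma-voom and 1 had an unadjusted p under 0.05, with log2 fold changes of -0.19 to 0.10. The F-box families fbxa, fbxb and fbxc had 5 of 183 tested genes lower, 2.73%, all of them fbxa, and 0 higher, with 22 lower and 3 higher by unadjusted p under 0.05 and 0 higher by DESeq2 and limma-voom. fbxa-138 fell by 1.31 (adjusted p = 0.00215) and fbxa-98 by 1.21 (adjusted p = 0.00966), and 2 of the 183 were lower without N2 replicate 1, with 3 without N2 replicate 2 or HW3826 replicate 1. The median log2 fold change was -0.23 for fbxa, -0.03 for fbxb and -0.14 for fbxc.

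Marker genes were called in 4 of the tissues listed, the intestine, seam cells, glia and pharyngeal gland, and 1 gene in each of the first 3 kept its call in every leave-out fit. Of 17 intestinal genes 5 were called higher and 0 lower, with 1 lower by unadjusted p under 0.05 and 0 lower by DESeq2 and limma-voom. Called genes were 29.4% of the list, against 6.0% of all tested genes. Summed over the 17, the level was 11800 and 11300 CPM in N2 and 12600 and 12700 in HW3826. elt-2, the GATA factor that directs intestinal genes, rose from 10.05 and 8.96 CPM to 15.3 in each HW3826 library (log2 0.68, SE 0.11, adjusted p = 0.00248), and GR1395, at 16.09 and 13.5, was above N2 too. The intermediate filament and associated genes ifo-1 (0.49), ifp-1 (0.32) and ifc-2 (0.31), which build the layer beneath the brush border, and the protease gene aex-5 (0.43), which acts in the defecation cycle, lost their calls when HW3826 replicate 2 (ifo-1, adjusted p = 0.0826), N2 replicate 2 or either HW3826 library (ifp-1, up to 0.272), either HW3826 library (ifc-2, up to 0.279) or HW3826 replicate 1 (aex-5, 0.0521) was left out. Leaving out HW3826 replicate 1 or 2 left 2 of the 17 higher, when 3.17% and 2.45% of all tested genes were called.

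Of 7 seam cell genes, from the epidermal stem cells of the larva, nhr-74 and nhr-73, neighbours on I, were higher. nhr-74 was at 2.02 and 1.88 CPM in N2, 6.15 and 6.28 in HW3826, with 2.29 and 1.52 in GR1395 (log2 1.67, SE 0.20, adjusted p = 0.000231), so HW3826 stood above all 4 other libraries. nhr-73 was counted 3 and 2 times in N2 and 29 and 12 times in HW3826 and was not called when either N2 library or HW3826 replicate 1 was left out (adjusted p up to 0.312). Of 10 glial genes vap-1, a secreted protein of the amphid sheath glia, fell from 102 and 104.2 CPM to 63.3 and 69.5 (log2 -0.64, SE 0.08, adjusted p = 0.00044). The list did not follow it: the median log2 fold change was 0.18, with 2 higher and 1 lower by unadjusted p under 0.05. Of 9 pharyngeal gland genes phat-5 was higher (1.02), and not without HW3826 replicate 1 (0.0808), while the median of the list was -0.17. Leaving out N2 replicate 1 gave 1 higher glial gene and 1 lower gland gene.

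edgeR called 0 of 89 genes in 5 lists of neuronal markers, which covered all neurons, ciliated sensory neurons, touch receptor neurons, cholinergic neurons, and monoamine and glutamate neurons. At an unadjusted p under 0.05 4 were higher and 7 lower, DESeq2 called 1 and limma-voom 0, and 4 were called higher without N2 replicate 1. The summed level of the 89 was 4540 and 4210 CPM in N2 and 4280 and 4270 in HW3826, so the strains overlapped. The lists of the pharyngeal muscle, hypodermis, excretory canal cell and coelomocytes were pooled because they had no call. edgeR, DESeq2 and limma-voom called 0 of their 26 genes. Of these, 3 were higher and 2 lower by unadjusted p under 0.05, and 4 were called higher without N2 replicate 1. The same tools called 0 of 26 genes of germ cell precursors, sperm, yolk and oocytes, and the early embryo, with 3 at an unadjusted p under 0.05.

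Pathway lists gave few calls each, so the members are described rather than the pathways. In sphingolipid synthesis, which begins with serine palmitoyltransferase, 2 subunit genes of this enzyme were called, and both rose. Subunit genes that were not called are not described, so no statement is made on the whole enzyme. sptl-2 was at 35.7 and 33.7 CPM in N2, 64.8 and 70.2 in HW3826, with 39.2 and 40.5 in GR1395 (log2 0.96, SE 0.08, adjusted p = 9.67e-06), and sptl-3 at 59.1 and 62.4 in N2 and 85.8 and 87.8 in HW3826 (0.51, adjusted p = 0.0013). Both lie on V, in separate places. They were 2 of 3 higher genes among 26 of phospholipid and sphingolipid synthesis, with 0 lower and 2 lower by unadjusted p under 0.05. The other, pcyt-1 of phosphatidylcholine synthesis (0.32), lost its call without N2 replicate 1, either HW3826 library or either GR1395 library (up to 0.225). DESeq2 and limma-voom called 0 of the 26 lower. By edgeR 11.5% of the 26 were called, against 6.0% of all tested genes.

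Of 17 tested genes for ascarosides, the pheromones of the worm, and for the steroid hormone dafachronic acid, 4 were higher and 0 lower (1 lower by unadjusted p under 0.05, 0 by DESeq2 and limma-voom). daf-36, the oxygenase that starts dafachronic acid synthesis, rose from 17.7 and 18.2 CPM to 27.9 and 31.9 (log2 0.73, SE 0.11, adjusted p = 0.00134), and ncr-1, a cholesterol transporter gene, by 0.49 (adjusted p = 0.00702). The acyl-CoA oxidase genes acox-1.2 (0.80), which lost its call without HW3826 replicate 2 (0.0539), and acox-1.1 (0.32), without N2 replicate 1 or either HW3826 library (up to 0.168), stand side by side on I. The share called was 23.5% of the 17, against 6.0% of all tested genes. Without HW3826 replicate 2, 2 of the 17 were higher, when 2.45% of all tested genes were called.

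Of 12 genes for the response to low oxygen and hydrogen sulfide, in which the hydroxylase EGL-9 and RHY-1 restrain the transcription factor HIF-1, 3 were called higher and 0 lower. The number lower was 0 also by unadjusted p under 0.05, DESeq2 and limma-voom. The share called was 25.0%, against 6.0% of all tested genes. rhy-1 rose from 5.02 and 5.54 CPM to 15.8 and 15.7 (log2 1.57, SE 0.13, adjusted p = 9.67e-06), and GR1395, at 9.68 and 7.70, lay between. cysl-2, which codes for an enzyme that handles cyanide and sulfide, rose from 67.3 and 78.6 CPM to 142 and 136 (log2 0.93, SE 0.09, adjusted p = 4.64e-05), with GR1395 at 68.8 and 62.3, near N2. cysl-1, a sulfide sensor gene of the same family, was higher by 0.30 and lost its call without either HW3826 library (up to 0.216), and without one of them 2 of the 12 were higher. On II, cysl-2 stands beside dhs-8 (0.85), lost without either N2 library or HW3826 replicate 1 (up to 0.302), and K10H10.4 (1.26), lost without either N2 or HW3826 library (up to 0.243). The antisense gene vnut-1 overlaps cysl-2 and did not pass (-0.13, adjusted p = 0.476).

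Over all tested genes 6.0% were called. Lists described next had 4.55% called for the vacuolar proton pump, 7.41% for autophagy and 7.69% for propionate breakdown. For mitochondrial stress it was 11.8%, for the one-carbon cycle 13.3%, for amino acid breakdown 14.3%, and for iron and zinc 15.4%. In amino acid and one-carbon metabolism single genes changed. hpd-1, of tyrosine breakdown, fell from 550 and 545 CPM to 390 and 396 (log2 -0.48, SE 0.07, adjusted p = 0.00188). It was the 1 lower gene of 21 for amino acid breakdown, of which 2 were higher and not without HW3826 replicate 2. cbs-1, which codes for a cystathionine beta-synthase, rose by 0.55 (adjusted p = 0.00407), 1 of 2 higher genes among 15 of the one-carbon cycle. The other, sams-1 (0.41), was not called when either HW3826 library was left out (adjusted p up to 0.223), which left 1. mce-1, the 1 called gene of 13 for propionate breakdown, rose by 0.45 (adjusted p = 0.00609). The trehalase gene tre-2 rose by 0.52 (adjusted p = 0.00197), and aakg-4, a regulatory subunit of the energy sensor AMPK, fell from 52.8 and 49.9 CPM to 34.5 and 28 (log2 -0.72, SE 0.10, adjusted p = 0.0007). A subunit gene of the vacuolar proton pump, vha-7, fell by 0.51 and was the 1 called gene of 22. Iron and zinc genes were called in both directions, 3 of 26 lower and 1 higher, and none was kept in every leave-out fit. The ferritin gene ftn-1 was at 23.1 and 19.2 CPM in N2 and 13.7 and 9.76 in HW3826 (log2 -0.85) and was not called when either N2 library was left out (adjusted p up to 0.118). The metallothionein gene mtl-1 (-0.58, up to 0.111) lost it without any 1 of the 4 libraries, and the importer genes zipt-2.1 (-0.38, up to 0.0942) and smf-3 (0.52, up to 0.171) without either HW3826 library and without N2 replicate 1 or HW3826 replicate 2. Without N2 replicate 2 or either HW3826 library 1 of the 26 was lower, and leaving out N2 replicate 1 or HW3826 replicate 2 gave 0 higher. Among stress and turnover genes, 2 of 17 for mitochondrial stress were higher, the chaperone genes hsp-6 (0.28) and hsp-60 (0.29), and 0 without either HW3826 or either GR1395 library. Of 27 autophagy genes 2 were lower, atg-3 (-0.40) and atg-13 (-0.32), and 1 and 0 without HW3826 replicate 1 and 2. Without N2 replicate 2, 5 were lower, and without N2 replicate 1, 3 were lower and 2 higher. The 5 lists for glycolysis, the citric acid cycle, folding in the endoplasmic reticulum, aminoacyl-tRNA synthetases and peroxisome assembly were pooled because edgeR called none of their genes. Of these 96 genes, 4 were higher and 3 lower by unadjusted p under 0.05. DESeq2 called 2 higher and 1 lower, limma-voom called 0, and edgeR called 2 higher and 1 lower without N2 replicate 2.

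**Figure D5:**
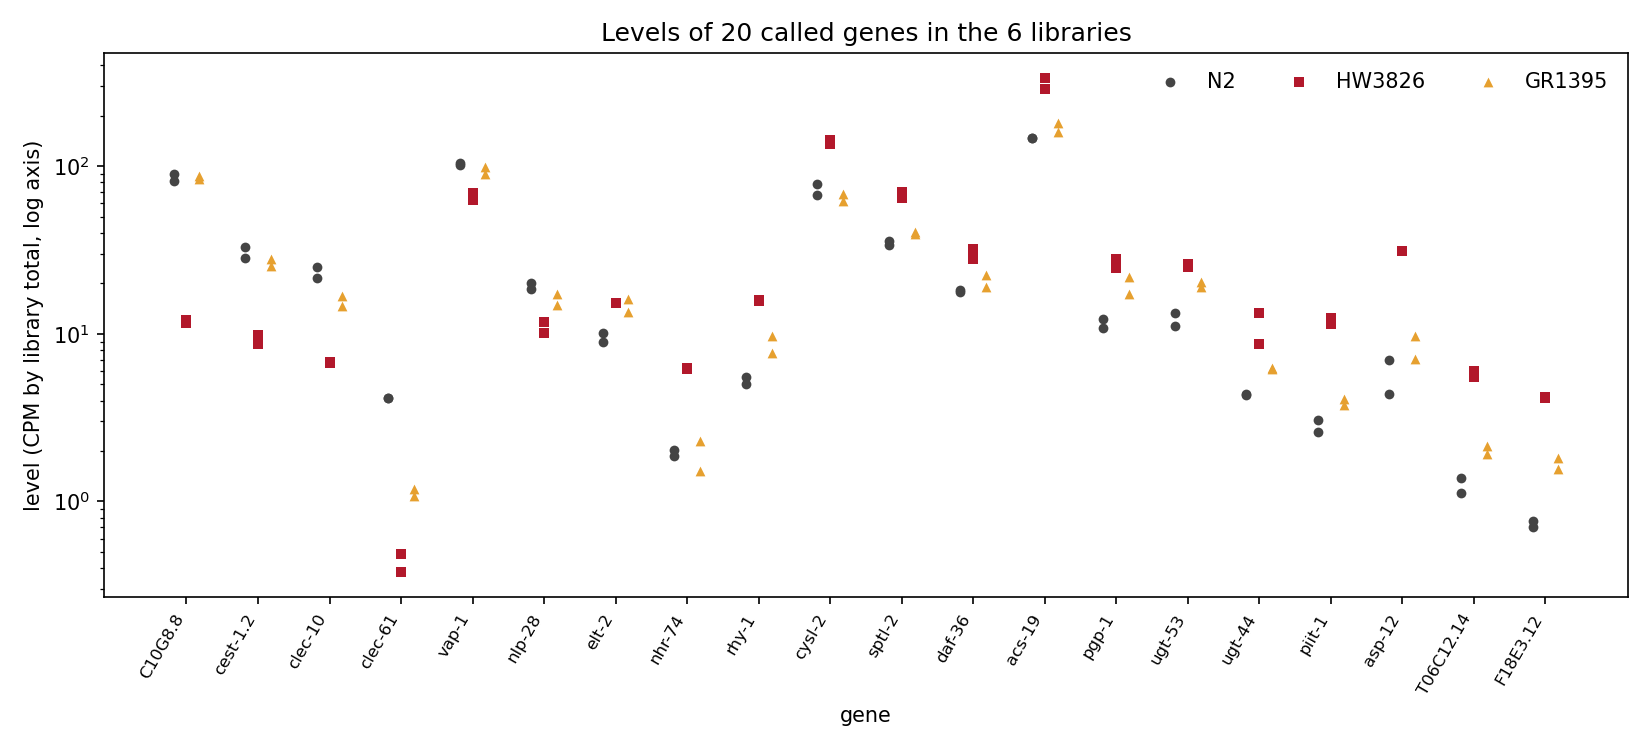
Level in CPM by library total (vertical axis, log scale) of 20 called genes described in the text (horizontal axis) in each library of N2 (grey circles), HW3826 (red squares) and GR1395 (orange triangles), each point a library. The HW3826 libraries lie outside the range of both N2 libraries for all 20 genes, which were chosen from called genes, so this is no separate test. For elt-2 the GR1395 libraries lie on either side of those of HW3826.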

How the data were processed

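Polyadenylated RNA of whole L1 larvae was sequenced in 2 libraries each of N2, HW3826 and GR1395. The authors deposited whole-number counts per gene with WormBase identifiers and, per the labels, a stranded kit was used. The submitters' processing notes name the build ce11 and HISAT2 1.10.0, while their roles, the counting tool and its use of strand are not given in any source used here. The authors also deposited log2 values, which equalled the log2 of the counts scaled to the mean library total plus 8, and no test used them. Names and positions came from the Ensembl 115 annotation of WBcel235, which matched 20105 of 20190 identifiers and left 85 unmatched.

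Genes were filtered with filterByExpr and tested with edgeR 4.0.16 (R 4.3.3, TMM factors, robust quasi-likelihood fit of all 6 libraries, contrast HW3826 minus N2, Benjamini-Hochberg adjustment over the 15024 tested genes, threshold 0.05). All adjusted p-values are from edgeR unless another tool is named. The fit had 3 residual degrees of freedom. CPM were scaled by library total, and intervals of count ratios are exact binomial intervals at 95%, covering counting error only. Alternatives used upper-quartile factors, no filter, a filter of 2 CPM, the 4 libraries alone, a replicate block, each library left out, a smooth trend with transcript length removed, a threshold of 1.2-fold, limma-voom (limma 3.58.1), DESeq2 1.42.0 and 2 Mb stretches. The edgeR step was tested on simulated counts with known changes. Positions, families and lists were described with Python 3.11.15 by counts and medians, with no test of a set.

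The genes open to naming were the 20 largest rises and falls among called genes whose strains did not overlap and whose mean reached 2 CPM, up to 4 called members of largest change per described family or list, members and flanks of runs, the 15 largest changes on V and called tissue markers, and the text names some of them. Genes of V 15 to 16 Mb and 18 to 19 Mb outside this rule, and C25F9.2, C25F9.11, nceh-1, sqst-3, F21G4.6, ugt-23 and ctl-2, were chosen after their values were seen. Members and lists were chosen with earlier results of these data known. Strains that did not overlap were part of this choice, and the share of such genes among all tested is not given.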

Additional observations from a re-analysis of the deposited data

How the results depend on the processing

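Against 532 higher, 370 lower and 257 called genes of V, a test for more than 1.2-fold called 144 higher and 106 lower, and leaving out 1 library gave 217 to 754 higher, 161 to 437 lower and 141 to 265 on V. The lowest counts came without HW3826 replicate 2 and the highest without N2 replicate 1. Upper-quartile factors, no or a stricter filter, the 4 libraries alone, the length trend removed, limma-voom and DESeq2 gave 444 to 672 higher and 326 to 488 lower genes. In stretches of 2 Mb the highest share of called genes was 12%, against 18.6% in 1 Mb. Of 287 named calls, 164 and 150 held without HW3826 replicate 1 and 2, and 240 with the length trend removed, where vab-10 reversed to -0.11. The cause was not tested.

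With the replicate number as a block, 358 genes were higher, 236 lower and 172 called on V, and 204 of the 287 named calls held. Deviations of same-numbered N2 and HW3826 libraries had a correlation of -0.184, and those of N2 and GR1395 of 0.014. With 2 libraries a strain, crossed pairs only reverse the sign (0.184 and -0.014), and HW3826 was not compared with GR1395. Whether libraries shared a batch was therefore not decided. A crossed replicate block, chosen after seeing the data, gave 577 higher and 407 lower genes.

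With 2 libraries a strain, small changes and genes of few counts are not resolved. Promoter sequences were not used here, and the planned motif comparison was not run.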
